A study of Caenorhabditis elegans with 2 samples.

Results

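The nuclear tRNA genes for isoleucine, valine, methionine, phenylalanine, tyrosine and tryptophan were examined for peaks of the tagged protein F26F4.8 in Caenorhabditis elegans. All genes annotated in Ensembl as tRNA genes of the nuclear genome, and given the product tRNA-Ile, -Val, -Met, -Phe, -Tyr or -Trp by RefSeq without a pseudogenic flag, were taken, whether or not they had a peak. This gave 125 of 612 nuclear tRNA genes: 29 for isoleucine, 31 for valine, 20 for methionine, 14 for phenylalanine, 19 for tyrosine and 12 for tryptophan. The rule for members uses the annotation and no peak values. F26F4.8 is annotated with a C2H2 zinc finger, a fold found in many DNA-binding proteins.

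The study held 1 group of 2 biological replicates. Chromatin immunoprecipitation with an anti-GFP antibody was followed by sequencing (ChIP-seq) in strain OP776, which carries the transgene wgIs776, with F26F4.8 joined to TY1, EGFP and 3xFLAG tags and with unc-119(+), in the mutant background unc-119(tm4063). Whole L4 larvae of 48 hours, grown on from L1 larvae starved after bleaching, were used, and sonication fragmented the chromatin. No untagged strain was analysed here. The lysates came from whole animals, so strong occupancy in few cells and weak occupancy in many cannot be told apart in any value below. Read depth is unknown, since the sources used here give no read numbers, and no interval or detection limit was set from it.

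Transfer RNA genes are transcribed by RNA polymerase III from a promoter that lies inside the transcribed sequence. The A box, in the part that encodes the D arm, and the B box, in the part that encodes the T arm, are bound by the factor TFIIIC, which brings TFIIIB to the DNA just upstream of the gene. A run of T in the non-template strand after the gene ends transcription. Methionine has 2 kinds of tRNA: the initiator starts protein synthesis, and its T loop carries A where other tRNAs carry T, so that its B box differs; the elongator inserts internal methionine. The tRNA-Tyr genes and some tRNA-Ile genes carry a short intron just after the anticodon. Several tRNA-Trp genes of the nematode are known by sup names because mutations in their anticodons let the tRNA read amber stop codons.

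The intragenic promoters of 4 genes are shown because the peaks described below centred on or near such sequences. Capitals mark the A box and the B box, found as the 11-base window nearest to the textbook consensus. The sequences are those of the non-template strand, in the direction of transcription, on WBcel235 (ce11).
T28B4.t1: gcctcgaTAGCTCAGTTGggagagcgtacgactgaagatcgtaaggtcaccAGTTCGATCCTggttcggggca
Y73B6BL.t1: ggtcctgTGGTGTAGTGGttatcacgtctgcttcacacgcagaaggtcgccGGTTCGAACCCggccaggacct
R11.t1: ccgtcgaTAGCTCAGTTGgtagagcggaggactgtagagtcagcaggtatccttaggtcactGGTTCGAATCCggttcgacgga
F57F5.t1: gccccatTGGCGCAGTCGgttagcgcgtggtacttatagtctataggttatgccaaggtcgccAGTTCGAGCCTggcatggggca
T28B4.t1 encodes tRNA-Phe at chrX:6593596-6593668 on the plus strand, inside an intron of fbxl-4. Y73B6BL.t1 encodes tRNA-Val with anticodon CAC at chrIV:6481161-6481233, plus strand, in an intron of tyr-6. R11.t1 encodes tRNA-Tyr at chrX:16209769-16209852, minus strand, between genes. F57F5.t1 encodes tRNA-Ile with anticodon TAT at chrV:12002176-12002260, plus strand, also between genes. R11.t1 and F57F5.t1 carry introns, which push the B box down to base 63 and base 64 of the gene, against base 52 in T28B4.t1 and Y73B6BL.t1.

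The boxes of the other kinds of gene differed from these by a few letters. The initiator tRNA-Met gene Y22D7AL.t3 had the A box TGGCGCAGTGG, with 0 mismatches to the consensus, and the B box GGATCGAAACC, with 2 mismatches. The elongator tRNA-Met gene C02F12.t1 had TAGCGCAGTAG and AGTTCGAGCCT, with 1 and 3 mismatches. The tRNA-Trp gene sup-5 had TGGCGCAATGG and CGTTCGATCCG, also with 1 and 3. The tRNA-Tyr gene K09A11.t1 had the B box GGTTCGAATCC, with 0 mismatches, and the tRNA-Ile gene T21B4.t1 had GGTTCGACCCC, with 1.

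Of the 125 genes, 61 (48.8%) had a listed peak, that is, a peak of the authors' conservative set with its summit within 200 bp of the gene; this set holds 978 of the 109990 peaks ranked across both replicates, those with an irreproducible discovery rate (IDR) of 0.01 or less. Over all nuclear tRNA genes the share was 58.8%, and among the 487 tRNA genes of other amino acids 299 (61.4%) had one. By amino acid, 15 of 29 tRNA-Ile genes (51.7%), 16 of 31 tRNA-Val genes (51.6%), 10 of 20 tRNA-Met genes (50%), 6 of 14 tRNA-Phe genes (42.9%), 8 of 19 tRNA-Tyr genes (42.1%) and 6 of 12 tRNA-Trp genes (50%) were listed. All 6 shares lay below 58.8%. The tRNA-His genes (5 of 20, 25%) lay lower than any of the 6, and the tRNA-Asn (10 of 20, 50%) and tRNA-Gln (14 of 27, 51.9%) genes were close to them. These shares have no test here: the genes are not replicates of one another, and the difference between the 6 amino acids and the rest is a description. It was small at a stricter IDR of 0.001, where 26 of the 125 genes (20.8%) and 107 of the 487 other tRNA genes (22.0%) kept a peak.

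**Figure D1:**
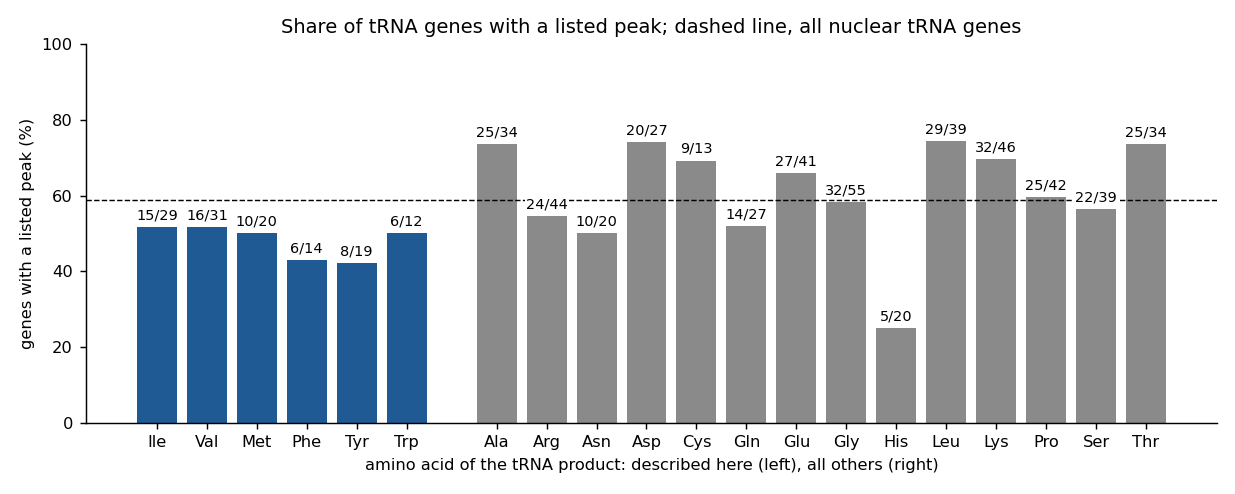
Percent of nuclear tRNA genes with a listed peak (y axis) by the amino acid of the product (x axis), the 6 described here in blue at the left and 14 others in grey at the right, with listed genes over all genes above each bar. Each of the 6 bars, between 42.1% and 51.7%, stands below the dashed line at 58.8%; 1 selenocysteine gene and 5 genes with no product are counted in the line but have no bar.

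Ranked peaks, listed or not, were found near almost all of the genes. The ranked list is long, with 109990 peaks and a median signal of 23.8. How often such a peak falls near sites without a tRNA gene was not counted, so an unlisted ranked peak cannot be read as occupancy. Any ranked peak was found within 200 bp of 116 of the 125 genes (92.8%, against 90.7% of all tRNA genes), so 55 genes had a ranked peak that was not listed and 9 had none. The pooled signal, the peak caller's enrichment in arbitrary units, had a median of 114 over the 61 listed genes (quartiles 84.4 and 152) and 109 over the 299 other listed tRNA genes. Over all genes with a ranked peak the medians stood the other way round, at 74.6 for the 116 genes and 92.8 for the 439 other tRNA genes. The 61 genes shared 60 listed peaks, 6.13% of the whole set, because C16H3.t1 and C16H3.t2 fell to 1 peak. Of the 60, 44 lay above the median of all listed peaks, 87.9. That was not particular to these genes: the lower quartile over the 299 other listed tRNA genes was 91.5, against 84.4 over the 61. The strongest stood at rank 67 of the ranked list and the weakest at rank 1503.

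Among the tRNA-Ile genes the highest signals belonged to T09B4.t1 and T09B4.t2, a divergent pair of identical genes in intergenic DNA at chrI:6164191-6164264 and chrI:6163471-6163544. Their pooled signals were 206 and 191. In the first and the second replicate column T09B4.t1 had 93.3 and 109, and T09B4.t2 had 78.7 and 106. Next came T21B4.t1 with 171 (99.7 and 79.1), in an intron of the collagen gene col-85. The lowest listed tRNA-Ile gene, R11B5.t3 in an intron of tbc-12, had 67.1 (33.3 and 39.4). Both replicate columns of each of the 3 strongest genes lay above both columns of R11B5.t3.

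Leaving aside Y51A2B.t1, whose anticodon did not match its annotation, the tRNA-Ile genes fell into 3 kinds. Of 21 genes with anticodon AAT, the main isoleucine tRNA of animals, 12 were listed. The 3 genes with anticodon TAT and an intron, which read the codon ATA, were all listed: F57F5.t1 at 140 (66.9 and 69.8), C02B4.t1 at 113 (60.4 and 57.9) and K11C4.t1 at 70.7 (38.6 and 30.9). K11C4.t1, in an intron of the ryanodine receptor gene unc-68, lay nearest the threshold among the 61 listed genes, at an IDR of 0.00945. The 4 genes with anticodon TAT and no intron, all of 85 bases and of 1 sequence, were not listed. F47A4.t1 had a ranked peak of 19.3 (12.2 and 8.24), below the median of 23.8 over all ranked peaks, and C36F7.t2, C36F7.t3 and T22C1.t1 had none within 200 bp. The weakest intron-bearing gene lay above F47A4.t1 in both columns. Fewer 50-base windows over the gene and 100 bp on each side were unique at the 85-base genes, 60.6% to 75.8%, than at the 3 intron-bearing genes, 100%; the part of this in the difference was not tested.

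The sequence of the 85-base genes set them apart from the other tRNA-Ile genes. Spliced lengths in the other 121 genes ran between 68 and 82 bases, and in tRNA-Leu and tRNA-Ser genes, which have a long variable arm, between 77 and 100 bases. Their A box, TGGCCGAGCGG, was found in 19 of 39 tRNA-Leu genes, 3 of 55 tRNA-Gly genes and 1 of 27 tRNA-Gln genes, and in no other gene of the 6 amino acids. Their closest relative was C36F7.t1, an annotated tRNA-Gln gene with 96.5% identity (3 edits), which had a ranked signal of 27.5 and was not listed either; the closest other tRNA-Ile gene reached 62.4% identity. As background, nematodes are known to have tRNAs with a long variable arm of the class II type that carry anticodons of other amino acids and are charged with leucine in vitro. Whether these 4 genes are of that class was not tested.

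Among the tRNA-Val genes, Y73B6BL.t1, whose sequence is shown above, was highest at 154 (94.3 and 55.3). The anticodon AAC genes F22G12.t1 and F58D5.t1 followed at 149 (80.1 and 77.5) and 148 (99.9 and 51.0). The lowest listed gene was T01B4.t4 at 76.6 (39.7 and 34.4), in an intron of the potassium channel gene twk-21. By anticodon, 10 of 19 AAC genes, 4 of 6 CAC genes and 2 of 5 TAC genes were listed, small numbers whose order cannot be read as more than counts. C52G5.t1 had the highest signal of any gene left unlisted, 82.1, with columns of 20.8 and 58.0.

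The tRNA-Met genes held the strongest peak of all 125 genes. The initiator gene Y22D7AL.t3, at chrIII:1604582-1604653, had 212 (104 and 109), but the summit lay 35 bp past it and 14 bp from the tRNA-Glu gene Y22D7AL.t4, so it cannot be given to either gene alone. The elongator gene C02F12.t1, in an intron of C01C4.3, had 183 (102 and 84.2) and the initiator gene T15B12.t1 had 179 (101 and 76.2). F15H9.t1, an initiator gene, was lowest among those listed at 66.5 (35.7 and 34.1). Initiator genes were listed at 6 of 10 and elongator genes at 4 of 9. Their listed signals overlapped widely, at 66.5 to 212 for initiators (179 without the peak beside Y22D7AL.t4) and 72.9 to 183 for elongators. Initiators were taken as genes that begin with A, have T as the last base but 1 and carry ATCG in the T loop; the rule set at first, with T as the very last base, found 0 genes and was adjusted once the sequences were seen.

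For tRNA-Phe the order was T28B4.t1 at 180 (85.5 and 91.6), F32A6.t1 at 131 (89.1 and 43.8) and Y39B6A.t9 at 129 (64.7 and 58.7), with K08B5.t1 lowest among the listed at 69.1 (33.7 and 40.5). For tRNA-Tyr it was K09A11.t1 at 182 (79.6 and 106), R11.t1 at 170 (116 and 56.0) and F56F4.t1 at 155 (63.1 and 89.6), with C18D4.t1 lowest at 74.6 (52.8 and 30.4). In R11.t1 and in K09A11.t1 the columns disagree on which gene is higher, so their order is within the difference between replicates. Over listed genes alone tRNA-Tyr had the highest median of the 6 amino acids, 134, and tRNA-Ile the lowest, 107. Over all genes with a ranked peak tRNA-Tyr had the lowest, 60.9, and tRNA-Val the highest, 81.1, so the order turned on which genes were counted. Of the 22 genes with an intron of their own, 11 were listed (50%), against 50 of the 103 without one (48.5%). Among the other tRNA genes 5 of 7 with an intron and 294 of 480 without one (61.3%) were listed.

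**Figure D2:**
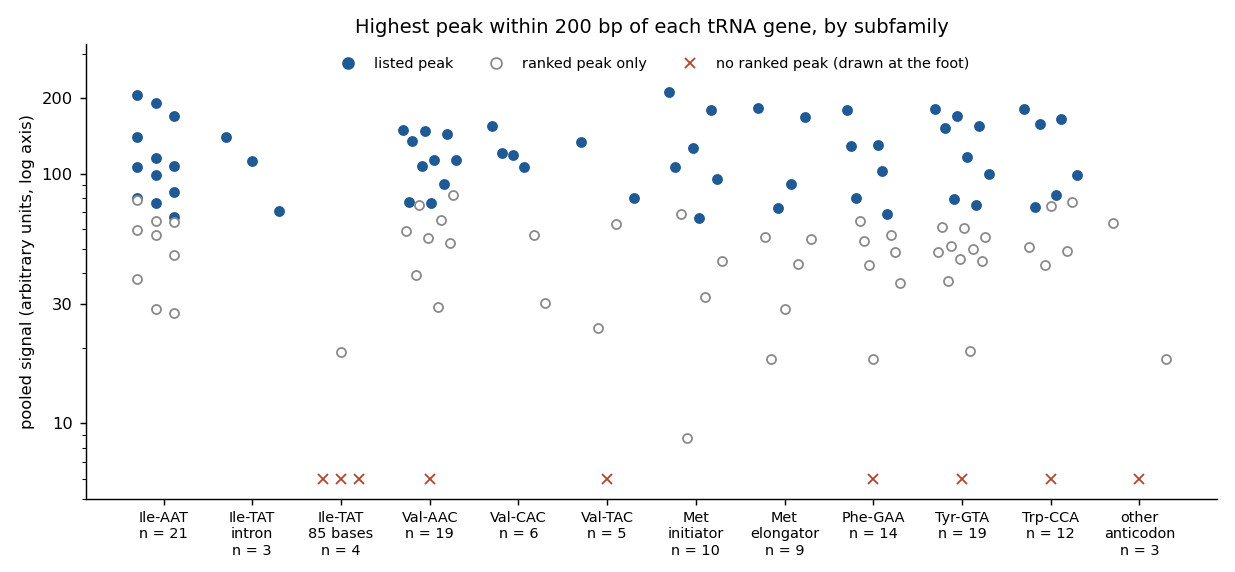
Pooled signal of the highest peak within 200 bp of each of the 125 tRNA genes (y axis, arbitrary units, log axis), grouped by anticodon and kind (x axis). Filled points had a listed peak and open points only a ranked one; crosses at the foot had none. Every kind with 5 or more genes spans both filled and open points, the 3 intron-bearing Ile-TAT genes are all filled, and the 4 Ile-TAT genes of 85 bases are at 19.3 or without a peak.

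The 12 tRNA-Trp genes include the suppressor genes sup-5, sup-7, sup-21, sup-24, sup-28, sup-29 and sup-33. Signals were 181 at sup-5 (78.9 and 99.8), 166 at sup-7 (97.4 and 62.1), 158 at rtw-5 (80.3 and 75.1), 98.3 at sup-21 (44.1 and 54.7), 81.9 at sup-28 (36.9 and 40.2) and 73.2 at sup-24 (34.3 and 44.3), all listed. The genes sup-33, rtw-6 and sup-29 had 76.9 (27.8 and 52.1), 74.2 (44.3 and 25.5) and 48.9 (25.8 and 20.8) and were not listed, and Y4C6B.t2 had no ranked peak. The 3 strongest stood apart in both columns. The signals of sup-24, sup-28, sup-33 and rtw-6 overlapped, and the calls did not follow their pooled signal: sup-24 was listed below the unlisted sup-33 and rtw-6. What set these calls apart was not tested.

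All 7 sup genes and 3 others have exactly the same sequence, so the letters that differ between them lie outside the gene. The 30 bases that follow each of 4 copies are shown, with the first run of 4 or more T in capitals, in order of falling signal.
sup-5: aatgTTTTgtttttgagctttaagtttggt
sup-7: aaTTTTTTgttttttaagtagtaatataat
sup-24: aagTTTTTTTTTTTTTTctaaatttgagta
sup-29: aaTTTTTTTTTgttgctttttttgccattt
The runs were of 4, 6, 14 and 9 bases. The 50 bases before the same 4 genes, where TFIIIB is placed, were these.
sup-5: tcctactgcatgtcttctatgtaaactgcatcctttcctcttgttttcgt
sup-7: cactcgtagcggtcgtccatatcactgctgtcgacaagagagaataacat
sup-24: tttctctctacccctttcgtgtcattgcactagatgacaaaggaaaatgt
sup-29: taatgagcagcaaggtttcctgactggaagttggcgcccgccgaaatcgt
Their A+T content was 60%, 52%, 60% and 46%, with no order that followed the signal. The genes lie at chrIII:8678497-8678568 (sup-5, minus strand, in an intron of fli-1), chrX:6371378-6371449 (sup-7, plus strand), chrIV:15289703-15289774 (sup-24, plus strand) and chrIV:3681880-3681951 (sup-29, minus strand).

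Such differences between identical genes ran through the whole set. The 125 genes held 42 distinct sequences; 15 of these were carried by more than 1 gene, 98 genes in all. In 14 of the 15, some copies were listed and others were not; in no case were all copies listed, and the exception with none was the 85-base tRNA-Ile sequence. Among the 14, the sequence of C16H3.t2 and Y73F8A.t1, counts only through a peak 141 bp from C16H3.t2 with its summit 1 bp from C16H3.t1, a gene of another sequence. Pooled signal in the 19 copies of the main tRNA-Ile sequence ran between 27.5 and 206, 7.50-fold, with 10 copies listed. It ran between 18.1 and 183 in the 9 elongator tRNA-Met copies (10.1-fold, 4 listed), 18.1 and 180 in 10 tRNA-Phe copies (9.96-fold, 4 listed), 31.9 and 212 in 9 initiator copies (6 listed; 179 at T15B12.t1 is the highest apart from the peak beside Y22D7AL.t4), and 29.1 and 149 in 12 tRNA-Val copies (6 listed). The low end of each range is a gene with a ranked peak only. At such genes the replicate columns agreed less: they were within 2-fold at 39 of 55, with first over second ratios between 0.358 and 5.14, against 57 of 61 listed genes within 2-fold and ratios between 0.565 and 3.05. That ratio compares columns at 1 gene, whereas a range compares pooled signals between genes. The 12 tRNA-Val copies spanned 5.11-fold, just below the ratio of 5.14. Smaller ranges, such as 4.22-fold over the 9 tRNA-Trp copies with a ranked peak and 3.83-fold over 6 tRNA-Tyr copies, were below it too. In these tRNA-Val, tRNA-Trp and tRNA-Tyr sequences the highest copy still lay above the lowest in both columns. For tRNA-Val these were F22G12.t1 (80.1 and 77.5) and F22G12.t2 (24.6 and 17.3). For tRNA-Trp these were sup-5 (78.9 and 99.8) and Y95B8A.t1 (33.8 and 11.5). For tRNA-Tyr they were R11.t1 (116 and 56.0) and F56F10.t1 (20.2 and 19.3).

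**Figure D3:**
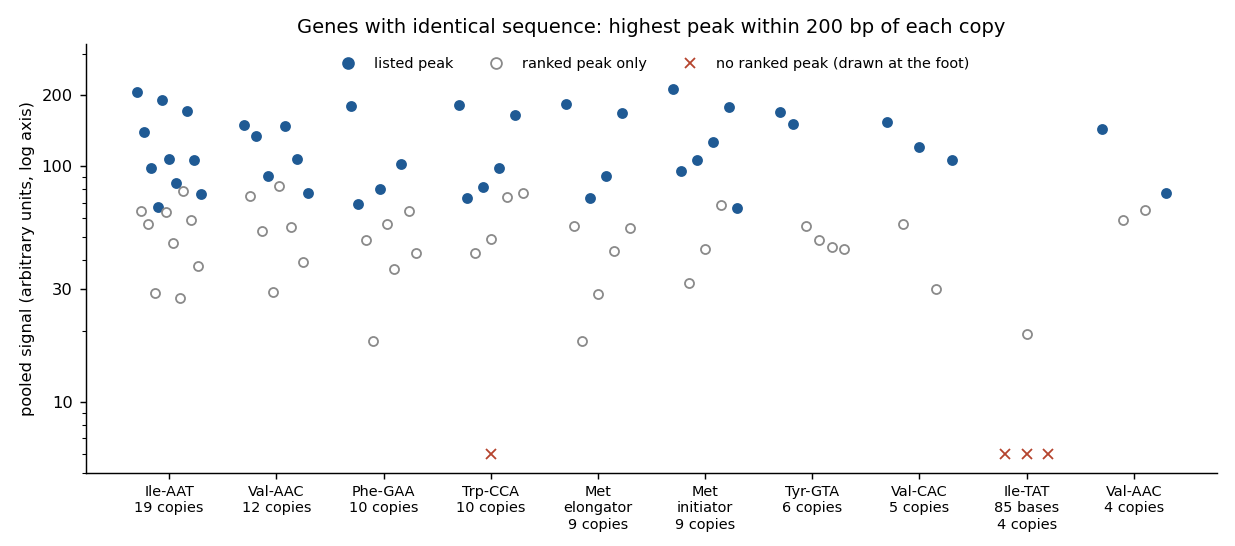
Pooled signal of the highest peak within 200 bp (y axis, arbitrary units, log axis) for the 10 sequences carried by 4 or more genes (x axis, with the number of identical copies). Filled points are listed genes, open points genes with a ranked peak only, crosses genes with none. Each set of 9 or more copies spans at least 4.22-fold, and the 4 Ile-TAT copies of 85 bases hold no filled point.

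The 10 identical tRNA-Phe genes include the pair at either end of their range. T28B4.t1 had 180 (85.5 and 91.6), and the identical T25D1.t2, at chrX:16523344-16523416 between genes, had 18.1 (13.3 and 11.1), lower in both columns. The loci also differ in how far reads can be placed: of the 50-base windows over the gene and 100 bp on each side, 84.4% were unique at T28B4.t1 and 30.8% at T25D1.t2. The summit at T25D1.t2 lay 82 bp outside the gene, and the part of unplaceable reads in the difference was not tested. The next lowest copy, K05G3.t1, had 36.6 (12.5 and 25.3). The 50 bases before and the 30 bases after each gene follow, with the T run in capitals.
T28B4.t1 before: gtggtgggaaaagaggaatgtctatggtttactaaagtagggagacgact
T28B4.t1 after: tttcTTTTTTcttttgtgaactttttcact
T25D1.t2 before: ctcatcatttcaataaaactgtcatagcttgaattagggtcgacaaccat
T25D1.t2 after: tttcTTTTTTgttttctttttctcaactag
Both have a T run of 6 bases that starts at the same place, and the A+T content before the gene was 56% in T28B4.t1 and 64% in T25D1.t2.

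Identical genes standing close together did not always have equal peaks. Within 1000 bp of each other lay 26 identical genes in 10 runs, of which 10 genes were listed. No such count was made for the other tRNA genes. In the run of 4 identical tRNA-Tyr genes, R11.t1 had 170 and was listed, whereas R11.t2, R11.t3 and R11.t4 had 55.8, 48.7 and 45.5 and were not. In a run of 4 identical tRNA-Val genes, T01B4.t1 had 144 and T01B4.t4 had 76.6, both listed, and T01B4.t2 and T01B4.t3 had 65.2 and 59.2. None of the 3 copies in the tRNA-Ile run B0344.t1 to B0344.t3 (28.8 to 56.7) or in the elongator run C25F6.t1 to C25F6.t3 (28.6 to 54.8) was listed. Both genes were listed at the pairs T09B4.t1 and T09B4.t2, F22B7.t3 and F22B7.t4, and F59C12.t1 and F59C12.t3.

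Reads that fall wholly within such copies cannot be placed on 1 of them. In 48 of the 61 listed genes, and in 51 of the 64 that were not, no 50-base window inside the gene was unique in the genome, while over the gene with 100 bp on each side a median of 84.8% of windows was unique in both. The treatment of such reads is not stated in the labels or file headers, and its part in the differences between copies was not tested. Genes with a sequence of their own were listed at 14 of 27 (51.9%) and genes with identical copies at 47 of 98 (48.0%). The other tRNA genes had the reverse order, with 43 of 116 single-copy genes (37.1%) and 256 of 371 genes with copies (69.0%).

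The A box differed between listed and unlisted genes in a few cases. All 61 listed genes had an A box with at most 1 mismatch to the consensus, as had 58 of the 64 unlisted ones. The remaining 6 were Y51A2B.t1 (tRNA-Ile, signal 63.5), Y73B6BL.t2 (tRNA-Val, no ranked peak), F21A3.t1 (tRNA-Met, 18.0), T05C7.t1 (initiator tRNA-Met, 8.77), R148.t1 (tRNA-Tyr, 19.5) and F49C5.t1 (tRNA-Trp, 50.7). All 6 have a sequence of their own. In the other tRNA genes no such limit was seen, as 249 of the 299 listed ones had at most 1 mismatch. T05C7.t1 differs from the listed initiator gene E01H11.t1 (107) by 5 edits, and R148.t1 from the listed C02B4.t2 (152) by 4.

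In 3 of those 6 genes the anticodon did not match the annotation either. The anticodon read from the sequence fitted the RefSeq product in 122 of 125 genes; Y51A2B.t1 read GGG, and Y73B6BL.t2 and F21A3.t1 read ACA. F21A3.t1, annotated as tRNA-Met, was 90.4% identical to the tRNA-Val gene F21A3.t2 and 61.6% identical to the closest tRNA-Met gene. None of the 3 was listed.

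The B box showed no such order. Listed genes made up 8 of 23 genes with 0 mismatches to the B box consensus (34.8%), 28 of 53 with 1 (52.8%), 6 of 10 with 2 (60.0%) and 19 of 39 with 3 or more (48.7%). In the other tRNA genes the 4 shares ran between 58.2% and 63.6%. The genes with 0 mismatches were the tRNA-Tyr genes and the tRNA-Ile genes with anticodon TAT and no intron. Those with 2 were the initiator tRNA-Met genes. Match to the B box consensus therefore cannot be told apart from the kind of gene here. With T runs of 4 bases 15 of 19 genes were listed (78.9%), with 5 bases 13 of 34 (38.2%) and with 6 or more 33 of 71 (46.5%), whereas the other tRNA genes had 55.9%, 63.0% and 64.4%. The median A+T content of the 50 bases upstream was 54% at listed and 60% at unlisted genes, and 54% and 62% among genes with identical copies. The other tRNA genes had medians of 56% when listed and 60% when not.

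Position along the genome was described in the same way. On the X chromosome 32 of 54 genes were listed (59.3%), and on the autosomes 29 of 71 (40.8%); for the other tRNA genes the shares were 59.0% on X and 63.4% on the autosomes. Genes inside an intron of a protein-coding gene were listed at 29 of 60 (48.3%) and intergenic ones at 32 of 65 (49.2%), against 68.2% and 55.5% of the other tRNA genes. Within a host intron, 17 of 33 genes on the strand of the host (51.5%) and 12 of 27 on the other strand (44.4%) were listed. The other tRNA genes had the reverse order, with 64.7% and 71.9%. Of 14 genes with another tRNA gene within 400 bp, 5 were listed (35.7%), and without these 14 the share was 56 of 111 (50.5%). For the other tRNA genes the counts were 88 of 139 (63.3%) and 211 of 348 (60.6%).

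Most summits lay on the gene body. At 45 of the 61 listed genes (73.8%) the summit was inside the gene, at 10 it was upstream and at 6 downstream; for the other listed tRNA genes 68.2% were inside. The median summit was 26 bp past the first base (quartiles 6 and 40), between the A box, which starts at base 8, and the B box, which starts at base 51 to 53 in most genes without an intron. The median was 8 bp for tRNA-Ile, 22.5 bp for tRNA-Met and tRNA-Phe, 28 bp for tRNA-Val and tRNA-Tyr and 17.5 bp for tRNA-Trp. The listed peaks had a median width of 264 bp, against a median gene length of 73 bp, and the precision of a summit was not measured. All 4 listed Val-CAC genes, but 1 of the 4 listed elongator tRNA-Met genes, had the summit inside.

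**Figure D4:**
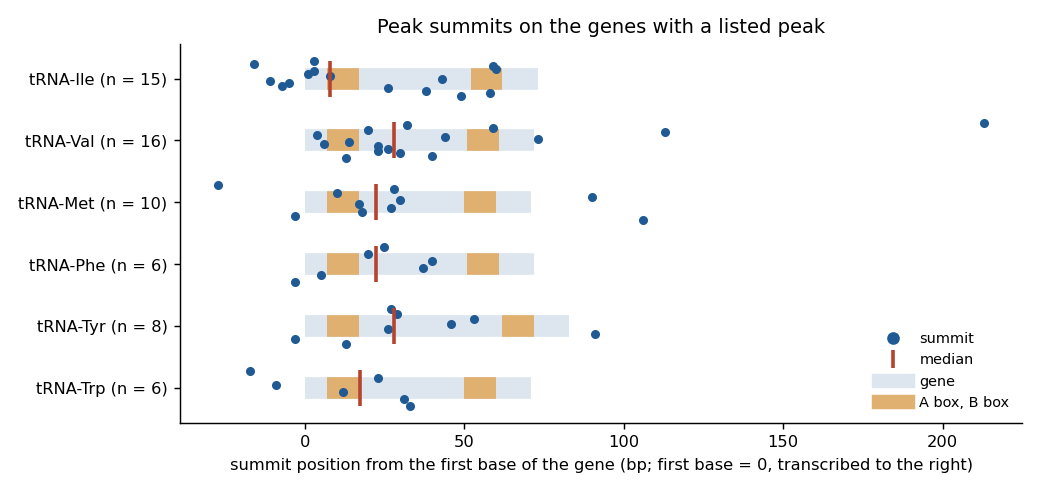
Position of the listed peak's summit from the first base of the gene (x axis, bp, in the direction of transcription) for the 61 listed genes by amino acid (y axis). Pale bars are the median gene length, tan blocks the A and B boxes, points single genes and red strokes medians, which lie between 8 and 28 bp. The point at 213 bp is C16H3.t2, whose peak lies 141 bp from it and beside C16H3.t1.

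The distance of 200 bp decided few calls. The listed summits nearest the limit lay 141 bp from C16H3.t2, 41 bp from F35A5.t1 and 35 bp from Y22D7AL.t3. Beyond it, the nearest listed summits lay 498 bp from T01B4.t3 and 514 bp from R11.t2, at the peaks of T01B4.t4 and R11.t1. The IDR threshold passed through a denser stretch. Just inside stood K11C4.t1 (0.00945), F15H9.t1 (0.00876) and F49E2.t1 (0.00868), with signals of 66.5 to 77.1. Just outside stood T28D6.t1 (IDR 0.0103, signal 74.7), T01B4.t2 (0.0149, 65.2) and F14B6.t1 (0.0150, 68.6). The signals on either side overlapped.

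The replicate columns agreed moderately. The columns carry no names. Of the 978 listed peaks, 960 had in the first column a value found in replicate 1's own ranked list and 973 had in the second a value found in replicate 2's; the reverse held for 0. Over the 61 listed genes the first column had a median of 63.1 and the second 53.5, and the first was higher at 39. Across these genes Spearman's rho was 0.57 and Pearson's r of the log2 values was 0.57 (n = 61 genes, which share 2 libraries and were chosen for agreement). At the 55 genes with a ranked peak only, rho was 0.12 and 39 were within 2-fold. The largest ratio among listed genes was 3.05, at F33G12.t1.

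**Figure D5:**
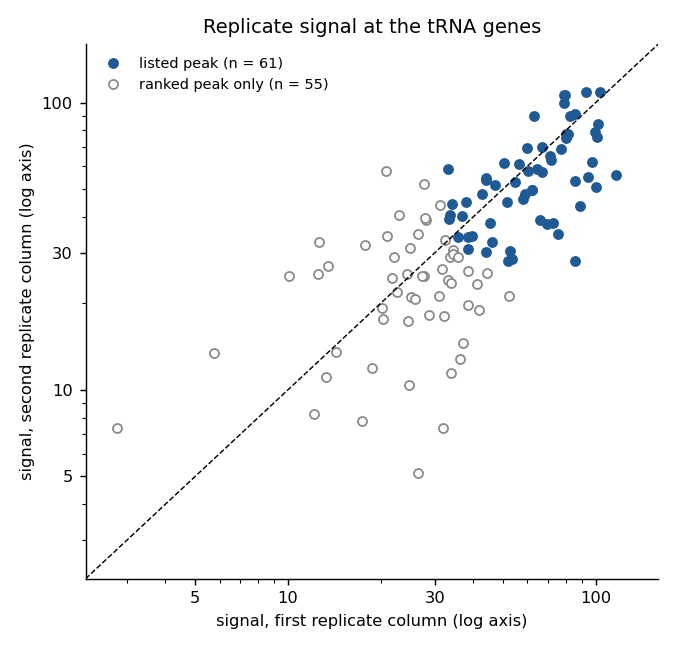
Signal in the first (x axis) and the second replicate column (y axis) at the 116 tRNA genes with a ranked peak, both in arbitrary units on log axes, with a dashed line of equality. The 61 listed genes (filled) lie towards the upper right, 57 of them within 2-fold of the line, and the 55 others (open) scatter more widely below them.

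Each replicate has a thresholded list of its own. In that of replicate 1, 38 of the 125 genes had a peak (30.4%, against 33.3% of all tRNA genes), and in that of replicate 2, 31 had one (24.8%, against 34%). The overlap was 26 genes, 68.4% of the first list and 83.9% of the second, against 67.2% and 65.9% over all tRNA genes. In all 43 genes were in one or the other, and every one of them was listed in the conservative set. The other 18 of the 61 listed genes were in neither. Over all tRNA genes, 261 of the 275 in either list were listed, and 99 of the 360 listed genes were in neither. The strongest genes named above for each amino acid, T09B4.t1, Y22D7AL.t3, T28B4.t1, K09A11.t1 and sup-5, were in both lists, except Y73B6BL.t1, which was in that of replicate 1 alone.

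The 9 genes with no ranked peak within 200 bp were of mixed kinds. They were C36F7.t2, C36F7.t3 and T22C1.t1 (tRNA-Ile), K10C8.t1, Y73B6BL.t2 and Y73F8A.t1 (tRNA-Val), Y95D11A.t1 (tRNA-Phe), F36D4.t1 (tRNA-Tyr) and Y4C6B.t2 (tRNA-Trp). No tRNA-Met gene was among them, and none lies on the X chromosome. Y95D11A.t1, whose nearest ranked summit was 274 bp away, was the only gene of the 125 with no run of 4 T within 40 bp after its end. Y4C6B.t2 is identical to sup-5, and Y73F8A.t1 to C16H3.t2.

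Peaks were also looked for at genes named as aminoacyl-tRNA synthetases of the same amino acids. The names were not sorted by whether the enzyme charges nuclear or mitochondrial tRNAs. Of 13 names of aminoacyl-tRNA synthetases for the 6 amino acids, 10 were found in the annotation, and 0 had a listed summit within 500 bp of a transcript start, where 1.23% of 19973 protein-coding genes had one. Ranked peaks stood at 9 of the 10, with signals between 10.2 at wars-1 (tryptophan) and 61.3 at vars-1 (valine). At that background 0 of 10 is no result about these enzymes.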

How the data were processed

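ChIP-seq peak lists of 2 replicates of 1 group, on the ce11 build, were analysed. The authors' deposited signal values are the peak caller's enrichment per peak, in arbitrary units, and served only for description and ranking inside 1 list. The authors' deposited −log10 values are those of the global IDR. For the peak caller, the aligner and the read numbers, nothing is stated in the sources used here. Genes came from Ensembl release 115, products and sequences from RefSeq, both on WBcel235.

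The highest listed peak with a summit within 200 bp was given to a gene, else the highest ranked peak. A and B boxes were the 11-base windows with the fewest mismatches; a T run had at least 4 T within 40 bp. Genes named were the 3 strongest and the weakest listed per amino acid, those at the limits and identical copies. No test was made: there was 1 group, so counts stand beside those of all tRNA genes. Assignment and anticodon reading were checked on simulated data. Python 3.11.15, NumPy 2.4.6, SciPy 1.17.1 and matplotlib 3.10.9 were used. Alternatives changed the peak set, IDR, distance, replicate and gene subset. The members, lists and descriptions were chosen with earlier results of these data known. Replicate spread covers 2 samples only.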

Additional observations from a re-analysis of the deposited data

How the results depend on the processing

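The count of 61 listed genes was within 1.5 times of its value with the other thresholded set, at 100 or 500 bp and without crowded genes, and the median signal moved by less than the difference between replicate columns in all 7 alternatives run. At an IDR of 0.001 or less the counts were 26 in all, 5 for tRNA-Ile, 7 for tRNA-Val, 5 for tRNA-Met, 2 for tRNA-Phe, 4 for tRNA-Tyr and 3 for tRNA-Trp. Among single-copy genes alone, fewer by construction, they were 14 in all, 5, 3, 0, 1, 4 and 1 in the same order. With the summit inside the gene, 6 tRNA-Met genes remained in the count. Using 1 replicate's own list gave 31 to 38 genes in all, 6 to 8 for tRNA-Ile, 10 to 11 for tRNA-Val, 5 to 6 for tRNA-Met, 2 to 4 for tRNA-Phe, 4 to 6 for tRNA-Tyr and 3 to 4 for tRNA-Trp. With summits of the second replicate column 82.0% lay inside the gene, and with those of the first 75.4%; the cause was not tested. No paired analysis was possible because there was 1 group. Unknown read depth limits every statement on weak or missing peaks.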
